A study of Mus musculus with 12 samples.

Results

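Transcripts of 8 interferon-inducible GTPases were followed across the 4 groups of the study: the guanylate-binding proteins Gbp2, Gbp3, Gbp5 and Gbp7, and the immunity-related GTPases Irgm1, Irgm2, Igtp and Ifi47. They were chosen by symbol, as 8 of the 24421 gene symbols in the count table, and all 8 were among the 11468 genes with enough counts to be tested. The cells were C57BL/6 bone marrow-derived macrophages (BMDM), differentiated with 100 ng/mL M-CSF over 5 days, with a medium change on day 3. They received I-BET151 (iBET, which blocks the acetyl-lysine pocket of the BET proteins) at 5.0 µM, or the solvent DMSO at 5% as the labels give it. They were also given ovalbumin (Ova) or ovalbumin bound by IgG in an immune complex (IC), for 4 hours, and were sorted into lysis buffer per the labels. This gave 4 groups of 3 libraries (DMSO Ova, DMSO IC, iBET Ova and iBET IC), each with a library from mouse A, from mouse B and from mouse C. The labels describe drug and stimulus as simultaneous and the study's text puts the drug first, so their order is uncertain. Per the labels, every group received antigen and none received added interferon.

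Guanylate-binding proteins (GBPs) and immunity-related GTPases (IRGs) are GTP-hydrolysing proteins that macrophages make in quantity after interferon gamma. They gather on the membranes of vacuoles that hold parasites or bacteria, help to break these open, and expose microbial products to the inflammasomes of the cytosol. Their genes are switched on mainly through gamma-activated sites (GAS) and through interferon-stimulated response elements (ISRE), which are bound by IRF1 and by complexes with IRF9. Among the IRGs, Irgm1, Irgm2 and Igtp act as regulators on the cell's own membranes, and Ifi47 belongs to the effector type.

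On the GRCm38/mm10 build, all 4 Gbp genes lie on the plus strand of chromosome 3, in the order Gbp5 (142493978 to 142522344), Gbp7 (142530342 to 142550149), Gbp3 (142560026 to 142573209) and Gbp2 (142620602 to 142638008). The IRG genes lie on chromosome 11. Irgm1 is at 48861968 to 48871683 on the minus strand, and Ifi47 at 49076587 to 49096974, Igtp at 58199556 to 58207591 and Irgm2 at 58199618 to 58222782 on the plus strand. Igtp and Irgm2 overlap on the same strand by 162 exonic bases, where reads cannot be assigned to either gene alone.

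Promoter sequence was examined because the 8 genes are classed as interferon targets, of which 5 were called lower with iBET in Ova and 7 in IC, as given further on. RefSeq promoter windows (GRCm38.p6) run from 250 bases before a transcript start to 50 after it, and 9 windows matched the 8 genes, with a pair for Gbp3. The stretches shown are the 150 bases directly before the start, 5′ to 3′ on the gene's strand. Capitals mark matches to a GAS (TTCNNNGAA), an ISRE core (GAAANNGAA or its reverse complement) or a PU.1-type site (GAGGAAGT). Igtp and Irgm2 are shown as the pair with nearly the same element, Irgm1 and Gbp7 as other members lower with iBET in both stimulations, Gbp2 as the member that was not called in either, and Ifi47 as the member with the largest decrease.
Igtp (chr11:58199406-58199555, plus strand): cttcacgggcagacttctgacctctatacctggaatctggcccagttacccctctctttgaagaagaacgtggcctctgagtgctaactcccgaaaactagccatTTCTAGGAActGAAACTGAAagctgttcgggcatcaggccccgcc
Irgm2 (chr11:58214827-58214976, plus strand): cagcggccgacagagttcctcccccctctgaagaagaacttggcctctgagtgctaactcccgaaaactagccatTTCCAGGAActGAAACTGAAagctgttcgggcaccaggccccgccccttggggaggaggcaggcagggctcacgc
Irgm1 (chr11:48871421-48871570, minus strand): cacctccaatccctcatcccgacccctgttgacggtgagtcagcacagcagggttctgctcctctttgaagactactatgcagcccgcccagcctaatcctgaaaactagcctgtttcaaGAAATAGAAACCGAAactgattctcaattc
Gbp7 (chr3:142530186-142530335, plus strand): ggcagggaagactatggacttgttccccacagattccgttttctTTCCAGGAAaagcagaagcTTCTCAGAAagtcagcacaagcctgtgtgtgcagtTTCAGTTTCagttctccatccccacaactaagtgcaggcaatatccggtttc
Gbp2 (chr3:142620513-142620662, plus strand): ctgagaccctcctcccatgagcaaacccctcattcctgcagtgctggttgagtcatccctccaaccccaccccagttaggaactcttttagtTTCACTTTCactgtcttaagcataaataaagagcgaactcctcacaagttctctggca
Ifi47 (chr11:49076437-49076586, plus strand): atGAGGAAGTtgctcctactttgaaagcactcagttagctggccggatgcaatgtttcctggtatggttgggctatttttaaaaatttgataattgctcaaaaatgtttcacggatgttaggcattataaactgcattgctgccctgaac

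The ISRE core was found in the windows of 7 of the 8 genes, all but Ifi47, against 8.56% of the 32851 RefSeq mouse promoters. A GAS was found in 4 (Gbp5, Gbp7, Irgm2 and Igtp), against 8.3% of all promoters, and these 4 also held an ISRE core, which 1.07% of all promoters combine with a GAS. Gbp5 had, in addition, the only match among the members to a kB-type site (GGNNTTTCC, 5.82% of all promoters), and Ifi47 the only match to the PU.1-type site (3.2%). Both strands were searched, and no motif was required to be free of overlap with another. The ISRE matches of Gbp3 overlapped each other, as did those of Irgm1, in which the capitals above run together. A match describes letters in the window and not bound factor. For Ifi47 only 1 of the 5 transcript starts in GENCODE vM21 lies within 50 bases of the transcript start of its window. The same held for 1 of 3 starts of Irgm2, 2 of 7 of Gbp3, 1 of 2 of Gbp2, 3 of 5 of Gbp5 and 2 of 3 of Irgm1. For Igtp (3 of 3) and Gbp7 (1 of 1) all starts did so.

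Igtp and Irgm2 carried the GAS and the ISRE core in the same arrangement, with the ISRE core starting 11 bases downstream of the start of the GAS. With the transcript start counted as 0, the GAS began at -45 in Igtp and at -75 in Irgm2. This spacing and order occurred in 8 of 32851 promoters (0.0244%), among them those of these 2 members and of Tgtp1 and Tgtp2, effector IRGs that are not members. The 300-base windows of Igtp and Irgm2 were 73.5% identical in a global alignment, and the other 35 pairs of member windows were 43.9% to 53.9% identical.

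**Figure D1:**
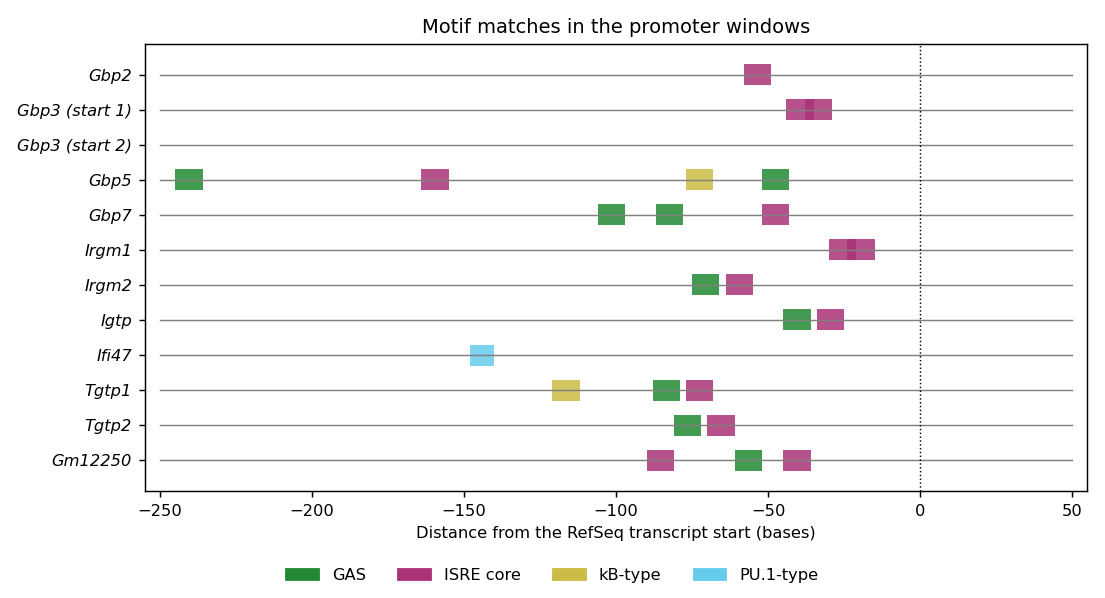
Positions of motif matches (coloured boxes) in the RefSeq promoter windows of the 8 members and of Tgtp1, Tgtp2 and Gm12250, along the distance in bases from the transcript start (dotted line). Igtp, Irgm2, Tgtp1 and Tgtp2 show a GAS with an ISRE core 11 bases downstream. The windows of Gbp2 and Irgm1 and a window of Gbp3 hold ISRE cores without a GAS, and that of Ifi47 holds neither.

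The libraries held between 7.55 M and 17.4 M counts. In mouse A, 77.4% of the DMSO Ova library fell on the ribosomal precursor Rn45s (1.41% to 7.83% in the other 11), which left 1.77 M counts and 342 on the members, against 829 to 2607 elsewhere. Its values are the least precise. Results without it are also given for the members called in Ova, for Gbp3, for IC against Ova in DMSO and for the Gbp2 ratios. Most other results that use it are given only with it. All 8 macrophage markers examined (Csf1r, Adgre1 and Lyz2 among them) exceeded 1 CPM (counts adjusted for library size with TMM factors) in every library. Their summed level was 6410 to 7610 CPM in DMSO Ova, 7390 to 8790 in iBET Ova, 6210 to 7010 in DMSO IC and 7650 to 8540 in iBET IC, so that in IC it was higher with the drug, the opposite direction to the members. The summed T cell and NK cell markers did not exceed 0.484 and 0.46 CPM, and the 5 neutrophil markers measured summed to between 7.7 and 50.2 CPM with overlapping ranges in the 4 groups. The 3 B cell markers measured summed to 0.514 to 1.15 CPM in DMSO Ova and 0.226 to 0.463 in iBET Ova. In IC they summed to 0.757 to 1.33 CPM with DMSO and 0.388 to 0.694 with iBET. The lower sums with the drug came mostly from Cd79b, at 1 to 14 counts per library. Cd79a and Ms4a1 had at most 2 counts in any library. The 4 dendritic cell markers summed to at most 1.21 CPM, and in IC the sum was higher with the drug (0.959 to 1.17 against 0.381 to 0.926). That rise came mostly from Zbtb46, with a mean of 0.387 CPM in DMSO IC and 0.977 in iBET IC (2 to 17 counts). Flt3 went the other way, at 0.24 and 0.0679 CPM. The part of these markers in the results was not tested. Fewer cells of a type and less RNA per cell cannot be told apart in such bulk libraries.

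Together, the 8 transcripts took 0.0233% ± 0.00348 of the counts outside Rn45s in DMSO Ova, 0.0115% ± 0.000572 in iBET Ova, 0.0221% ± 0.00199 in DMSO IC and 0.011% ± 0.000981 in iBET IC (SD, n = 3). Every DMSO library lay above every iBET library, with a lowest DMSO value of 0.0193% and a highest iBET value of 0.0119%. Irgm1 contributed more to this share than any other member.

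Levels were compared between genes per kilobase of exon (CPM per kb). In DMSO Ova, Irgm1 was highest at 15.5 ± 2.72, followed by Igtp at 11.7 ± 1.16, Irgm2 at 8.12 ± 0.868, Gbp2 at 7.39 ± 0.741, Ifi47 at 4.2 ± 1.26, Gbp3 at 2.45 ± 1.29, Gbp7 at 1.97 ± 0.29 and Gbp5 at 0.301 ± 0.0744. Between neighbours in this order, the libraries of Irgm1 and Igtp, of Irgm2 and Gbp2, of Ifi47 and Gbp3, and of Gbp3 and Gbp7 overlapped. In DMSO IC, Irgm1 (15.2 ± 1.14) and Igtp (10.4 ± 1.37) again led and no longer overlapped, and Gbp2 (8.07 ± 0.933) stood above Irgm2 (6.8 ± 0.0634). Under iBET, Gbp2 shared the top ranks on this scale, at 7.21 ± 0.287 in iBET Ova beside Igtp (7.61 ± 0.0329) and Irgm1 (6.87 ± 0.776), and at 6.59 ± 1.55 in iBET IC between Irgm1 (7.3 ± 0.867) and Igtp (6.5 ± 0.364). In iBET Ova the libraries of Gbp2 and Irgm1 overlapped, and in iBET IC those of all 3 genes. Gbp5 was lowest in all 4 groups. With the longest annotated transcript in place of all exons, the DMSO Ova value of Irgm1 became 23.5, that of Ifi47 5.85 and that of Gbp5 0.532 CPM per kb. On that scale Irgm1 led in all 4 groups without overlap, at 10.4 ± 1.18 in iBET Ova and 11.1 ± 1.31 in iBET IC, above Gbp2 and Igtp. The libraries of Gbp2 and Irgm2 then overlapped in DMSO IC, and those of Gbp2 and Ifi47 in DMSO Ova.

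**Figure D2:**
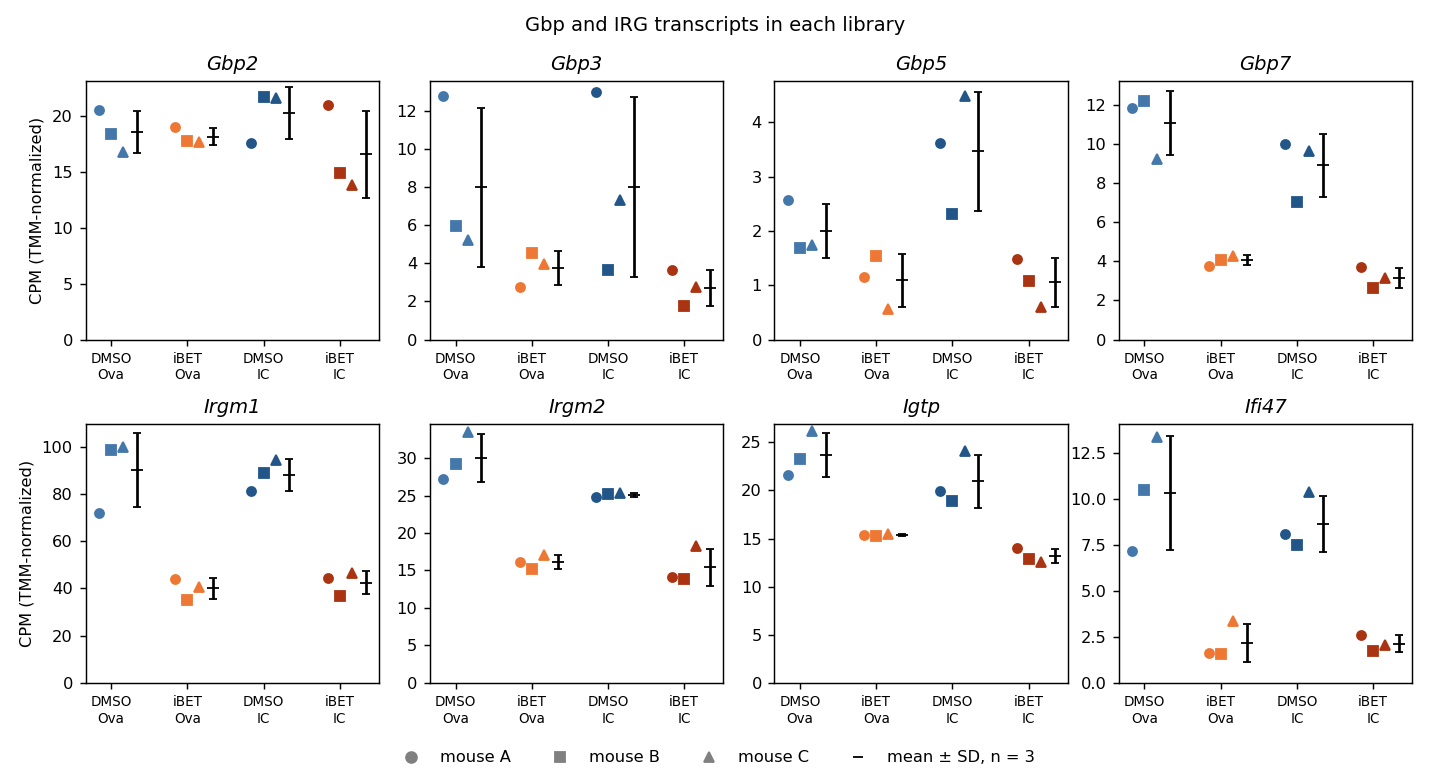
CPM of the 8 members in each library, by group, with a marker shape for each mouse and the mean ± SD of 3 libraries at the right of each group. In 7 panels every iBET library sits below every DMSO library of the same stimulation, and for Gbp2 the groups overlap.

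Setting iBET Ova against DMSO Ova asked how the GTPase genes respond to BET inhibition in macrophages without immune complex. With iBET, 5 of the 8 were called lower (edgeR quasi-likelihood test, adjusted p under 0.05 over 11468 genes), against a background of 14.2% of all genes tested in that direction. These were Gbp7, Irgm1, Irgm2, Igtp and Ifi47. The median log2 fold change was -0.91 over the members and 0.02 over all genes tested. The 3 libraries of each group did not overlap, with iBET lower, for 7 of the 8 members and for 19.9% of all genes tested. In IC the same comparison called 7 of the 8 lower (background 15.8%), with a median of -1.27 against 0 over all genes. There too the groups did not overlap for 7 members (22.3% of all genes). With mouse A left out of DMSO Ova, the same number of members (5) was called in Ova, with log2 fold changes of -1.45 for Gbp7, -1.36 for Irgm1, -1.01 for Irgm2, -0.74 for Igtp and -2.52 for Ifi47. With iBET, 0 members were called higher in Ova (17.1% of all genes) and 0 in IC (19% of all genes).

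Ifi47, an effector IRG, had the largest decrease. Its level in mice A, B and C was 7.19, 10.5 and 13.4 CPM in DMSO Ova and 1.62, 1.54 and 3.38 CPM in iBET Ova. In IC it was 8.08, 7.48 and 10.4 CPM with DMSO and 2.62, 1.74 and 2.04 CPM with iBET. All 6 iBET libraries were below all 6 DMSO libraries. Ifi47 was 5.06-fold lower with iBET in Ova (log2 fold change -2.34, SE 0.32, adjusted p 0.000161). In IC it was 3.96-fold lower (-1.98, SE 0.31, adjusted p 0.000355). Each of the 3 mice showed both decreases. Its DMSO Ova library of mouse A and its iBET Ova library of mouse B each held 14 counts. Ifi47 overlaps an annotated antisense transcript and Olfr56, and the use of strand in counting was not stated.

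The regulatory IRGs fell less. Irgm1, which controls the effector IRGs and is required for resistance to mycobacteria in mice, measured 71.9, 98.6 and 99.9 CPM in DMSO Ova and 44.0, 35.1 and 40.7 CPM in iBET Ova. With IC it measured 81.0, 88.8 and 94.3 CPM in DMSO and 44.3, 36.7 and 46.3 CPM in iBET. The highest iBET library (46.3 CPM) was below the lowest DMSO library, which was that of mouse A in DMSO Ova. The log2 fold change was -1.19 for Ova (SE 0.14, adjusted p 7.01e-05) and -1.05 for IC (SE 0.14, adjusted p 0.000134). Irgm1 shared no exact 100-base stretch with the annotated transcripts of another gene. Shorter or inexact matches were not searched, so a part of reads from paralogs in its counts was not tested.

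Irgm2 and Igtp, the other regulatory IRGs, were also lower in both stimulations. Irgm2 was at 27.2, 29.2 and 33.5 CPM in DMSO Ova, and at 16.1, 15.2 and 17.0 CPM in iBET Ova. It was at 24.8, 25.2 and 25.3 CPM in DMSO IC, and at 14.1, 13.9 and 18.2 CPM in iBET IC. The drug groups did not overlap in either stimulation, and the log2 fold change was -0.91 for Ova (SE 0.13, adjusted p 0.000315) and -0.71 for IC (SE 0.13, adjusted p 0.00133). Igtp, also called Irgm3, was at 21.6, 23.3 and 26.2 CPM in DMSO Ova and at 15.4, 15.3 and 15.5 CPM in iBET Ova. With IC it was at 19.9, 18.9 and 24.1 CPM in DMSO and at 14.0, 12.9 and 12.6 CPM in iBET. The iBET Ova libraries lay closest together, with an SD of 0.0666 CPM, and the drug groups were again apart. The log2 fold change of Igtp was -0.64 for Ova (SE 0.13, adjusted p 0.00292) and -0.67 for IC (SE 0.13, adjusted p 0.00166). With 1 mouse left out, Irgm2 in IC was no longer called without mouse B (adjusted p 0.0661), nor were Igtp in Ova without mouse B (0.0744) or C (0.0533) and Igtp in IC without mouse C (0.0504).

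Gbp7, a vacuole-targeted GBP, had the largest decrease of the Gbp genes in Ova. Its level was 11.8, 12.2 and 9.2 CPM in DMSO Ova against 3.78, 4.08 and 4.29 CPM in iBET Ova. In IC it was 10.0, 7.04 and 9.63 CPM with DMSO against 3.68, 2.62 and 3.12 CPM with iBET. The highest iBET library (4.29 CPM) was below the lowest DMSO library (7.04 CPM). Gbp7 was 2.71-fold lower in Ova (log2 fold change -1.44, SE 0.21, adjusted p 0.00026) and 2.8-fold lower in IC (-1.49, SE 0.2, adjusted p 0.000156). Of the 100-base stretches of its exons, 10.0% also occur in other genes, mainly Gm43802 and to a small extent Gbp3, so part of its counts may be shared.

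Gbp3 differed between mice in DMSO, where it was highest in mouse A. It measured 12.8 CPM (Ova) and 13 CPM (IC) in mouse A, against 5.98 and 5.22 CPM in the Ova libraries and 3.63 and 7.34 CPM in the IC libraries of mice B and C. With iBET it measured 2.78, 4.52 and 3.95 CPM in Ova and 3.63, 1.74 and 2.76 CPM in IC. The groups did not overlap in either stimulation, by the smallest margin in IC, where mouse B in DMSO and mouse A in iBET both rounded to 3.63 CPM. Gbp3 was 2.9-fold lower in IC (log2 fold change -1.54, SE 0.46, adjusted p 0.022), and in Ova it was not called (-0.92, 95% interval -1.97 to 0.14, adjusted p 0.173). Its call in IC was lost when mouse A was left out of DMSO IC (log2 fold change -1.01, adjusted p 0.089) and when mouse B (-1.31, adjusted p 0.0831) or mouse C (-1.53, adjusted p 0.06) was left out of iBET IC. It was also lost, with a difference at least as large as with all libraries, when mouse B (-1.65, adjusted p 0.0502) or mouse C (-1.6, adjusted p 0.136) was left out of every group. The difference in Ova was -0.65 with mouse A left out of DMSO Ova.

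Gbp5, which promotes assembly of the NLRP3 inflammasome, was the least abundant member, with 5 to 47 counts per library. It measured 2.57, 1.69 and 1.74 CPM in DMSO Ova and 1.16, 1.54 and 0.564 CPM in iBET Ova. In IC it measured 3.62, 2.31 and 4.48 CPM with DMSO and 1.49, 1.07 and 0.599 CPM with iBET. The iBET libraries were lowest in mouse C in both stimulations, and none reached the DMSO libraries. Gbp5 was 3.1-fold lower in IC (log2 fold change -1.63, SE 0.38, adjusted p 0.00558), a call lost without mouse C (-1.18, adjusted p 0.0643). It was not called in Ova (-0.73, 95% interval -1.68 to 0.22, adjusted p 0.228).

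Gbp2, which is recruited to bacteria and to Toxoplasma vacuoles, was the member with no call. It was at 20.5, 18.4 and 16.8 CPM in DMSO Ova and at 19.0, 17.8 and 17.7 CPM in iBET Ova, where the groups overlapped fully. In IC it was at 17.6, 21.7 and 21.6 CPM with DMSO and at 21, 14.9 and 13.8 CPM with iBET, so that mouse A was higher with the drug while mice B and C were lower. The log2 fold change was -0.01 in Ova (95% interval -0.38 to 0.36, adjusted p 0.966) and -0.28 in IC (95% interval -0.64 to 0.08, adjusted p 0.21). In IC it was called lower when mouse A was left out of iBET IC (-0.5, adjusted p 0.032) and without mouse A (-0.6, adjusted p 0.00779). In Ova the interval allows a decrease of at most 0.38 on the log2 scale, which is smaller than the estimates for the other 7 members. Those estimates have intervals of their own. The Ova intervals of Gbp3 (-1.97 to 0.14), Gbp5 (-1.68 to 0.22) and Igtp (-0.92 to -0.35) overlap that of Gbp2.

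The contrast between Gbp2 and the other members, noticed in these values, is described here without a test. The log2 ratio of Gbp2 to the other gene was taken in every library and compared between iBET and DMSO within mouse and stimulation, which gave 6 pairs from 3 mice. The ratio was higher with iBET in 6 of 6 pairs against Gbp3, Gbp5, Gbp7, Irgm1, Igtp and Ifi47, and in 5 of 6 against Irgm2. The mean rise of the ratio was 1.89 ± 0.39 (SD) for Ifi47, 1.25 ± 0.34 for Gbp7 and 0.94 ± 0.43 for Irgm1 on the log2 scale, and smallest for Igtp, 0.47 ± 0.31. With mouse A left out of DMSO Ova, these means were 1.89, 1.21, 1.01 and 0.49.

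**Figure D3:**
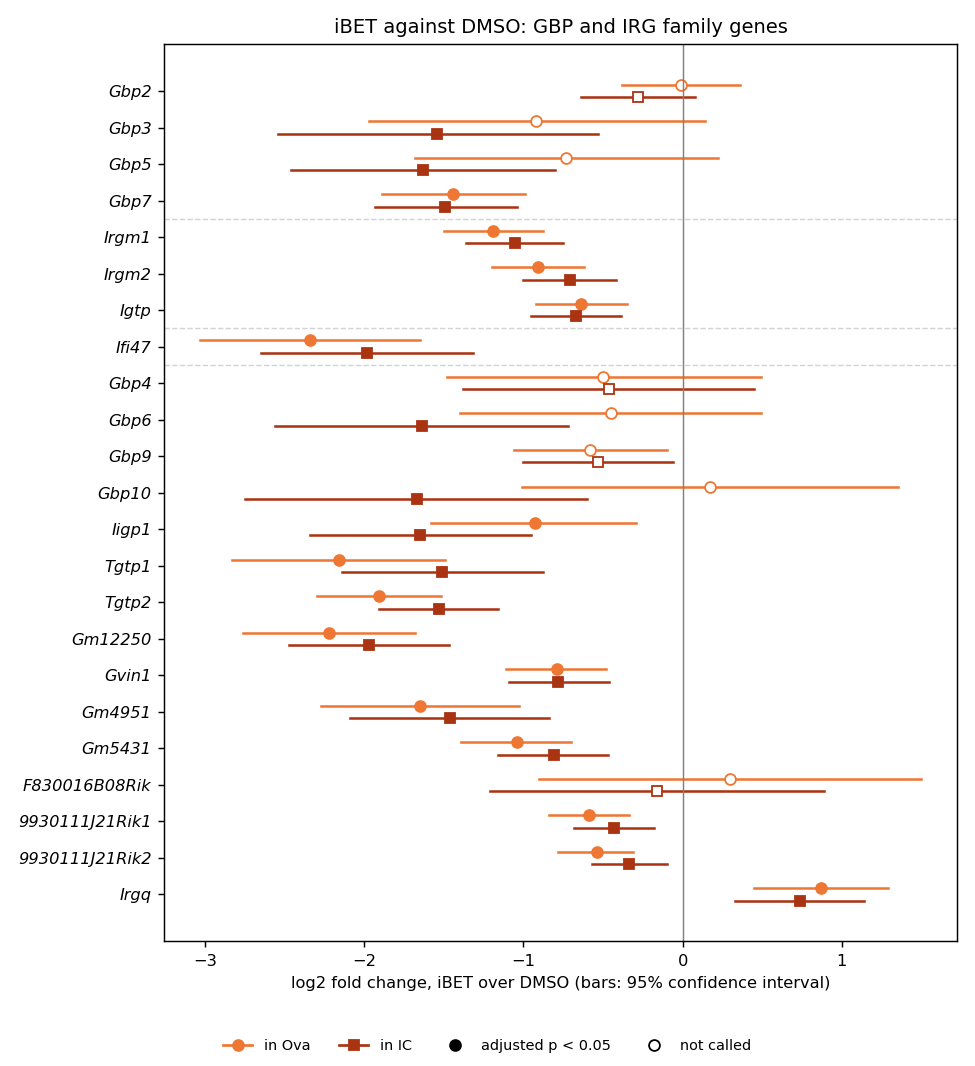
Log2 fold change of iBET over DMSO with its 95% confidence interval in Ova (orange circles) and IC (red squares), for the 8 members (above the lowest dashed line) and 15 other genes of the GBP and IRG families. Filled symbols passed an adjusted p of 0.05. Ifi47 lies farthest left among the members, Gbp2 lies near 0, and Irgq is the only gene called higher.

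The comparison of IC with Ova asked whether immune complex, which engages Fc gamma receptors, changed these genes. No group received antibody alone, so the comparison does not isolate receptor engagement. In DMSO, 0 of the 8 members were called by edgeR (background 1.22% of all genes tested, either direction), 1 had an unadjusted p under 0.05 (11.7% of all genes), and DESeq2 also called 0. That member was Gbp5, at 2.57, 1.69 and 1.74 CPM with Ova and 3.62, 2.31 and 4.48 CPM with IC. It was higher with IC in 3 of 3 mice, the groups overlapped, and the log2 fold change was 0.93 (95% interval 0.08 to 1.77, adjusted p 0.366). The other 7 differed by between -0.33 and 0.21. Leaving mouse A out of DMSO Ova, 0 members were called, with differences from -0.49 (Ifi47) to 1.0 (Gbp5). Irgm2 was lower in 3 of 3 mice without overlap (-0.27, 95% interval -0.56 to 0.02, adjusted p 0.47), a separation in that direction found in 7.47% of all genes tested.

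In iBET, 0 of the 8 were called by edgeR between IC and Ova (background 0.349%), 0 had an unadjusted p under 0.05 (7.5% of all genes), and DESeq2 called 0. The differences ran from -0.41 (Gbp3) to 0.09 (Irgm1). Gbp7 (-0.34, 95% interval -0.81 to 0.12) and Igtp (-0.22) were lower with IC without overlap, as were 9.34% of all genes tested. Both comparisons used the groups of the drug comparisons, so their values for a gene are not independent of those above.

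**Figure D4:**
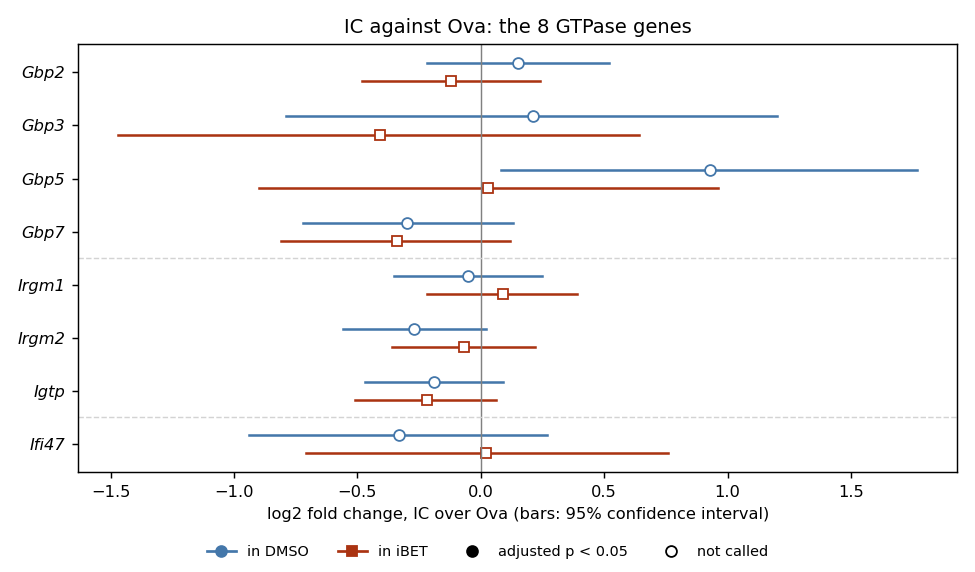
Log2 fold change of IC over Ova with its 95% confidence interval in DMSO (blue circles) and iBET (red squares) for the 8 members. All symbols are open, since no member passed an adjusted p of 0.05. Every interval but that of Gbp5 in DMSO includes 0.

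Whether the drug effect differed between stimulations was tested by the interaction, the log2 fold change of iBET in IC minus that in Ova. Here 0 of the 8 members were called by edgeR and by DESeq2, as were 0 of all 11468 genes in edgeR (0% background, and 2.55% at an unadjusted p under 0.05, with 0 members among them). The member with the largest difference was Gbp5 (-0.9, 95% interval -2.17 to 0.37, p 0.15 unadjusted in the edgeR fit), and Ifi47 had the most positive (0.35). Gbp3 (-0.62, unadjusted p 0.37 in edgeR) and Gbp5 were called in IC and not in Ova, but their drug effects were not shown to differ between the 2 stimulations.

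The wider families were described by a list of 19 further GBP and IRG-related genes, of which 15 passed the filter on low counts. In Ova, 9 were called lower and 1 higher with iBET, against 14.2% and 17.1% of all genes, with a median of -0.59 against 0.02. In IC, 11 were lower and 1 higher, against 15.8% and 19%, with a median of -0.81 against 0. The effector IRG Tgtp2 was lower in both, with a log2 fold change of -1.91 for Ova (SE 0.18, adjusted p 1.2e-05) and -1.53 for IC (SE 0.17, adjusted p 3.92e-05). Gm12250, also known as Irgb10, was 4.65-fold lower in Ova and 3.91-fold lower in IC (log2 fold changes -2.22 and -1.97). Tgtp1 was lower by similar amounts (-2.16 and -1.51), but Tgtp1 and Tgtp2 share most of their sequence, so reads may be divided between them. The IRG Iigp1, with 5 to 30 counts per library, was called lower in both. Its log2 fold change was -0.93 for Ova (adjusted p 0.0308), smaller than that of Irgm1 (-1.19), and -1.65 for IC (adjusted p 0.00176). The gene called higher was Irgq (0.87 in Ova and 0.74 in IC), an IRG relative linked to autophagy and named after its values were seen.

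Of the other Gbp genes, Gbp6 and Gbp10 were called lower in IC (-1.64, adjusted p 0.0102, and -1.67, adjusted p 0.0199) and not in Ova (-0.45, adjusted p 0.464, and 0.17, adjusted p 0.846). These are close paralogs as well, with 64.5% of the 100-base stretches of Gbp6 and 73.5% of those of Gbp10 found in another gene. Gbp4 was not called in either (-0.5 in Ova and -0.46 in IC). Gbp9 was at -0.58 in Ova (adjusted p 0.0661) and -0.53 in IC (adjusted p 0.0778), and was called in both with mouse as a block (adjusted p 0.00278 and 0.0038). Between IC and Ova, 2 of the 15 were called lower in DMSO, 9930111J21Rik1 (-0.57) and 9930111J21Rik2 (-0.54), and 0 in iBET. Of all genes tested, 1.22% were called in DMSO and 0.349% in iBET, in either direction. Of the 100-base stretches of these 2 genes, 70.5% and 48.3% occur in another gene, mostly in each other. Reads may thus be divided between them, and the 2 calls may not be separate.

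The inducers of these genes were then examined. Ifng and Ifnb1, which encode interferon gamma and beta, had 0 counts in all 12 libraries, a result that allows up to 3 counts in each. Of 24 genes for interferons, receptors, kinases, transcription factors and inhibitors, 21 could be tested; with iBET 7 were called higher and 5 lower in Ova (median 0.19), and 5 and 4 in IC (median 0.19). Of all genes, 17.1% were higher and 14.2% lower in Ova, and 19% and 15.8% in IC, close to the shares of this list in IC. The receptor subunit Ifngr1 was not called (-0.34 in Ova, adjusted p 0.102, and -0.08 in IC, adjusted p 0.701). Ifngr2 was lower in Ova (-0.54, adjusted p 0.027) and was called in IC only with mouse as a block (-0.4, adjusted p 0.0768 without and 0.00386 with the block).

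Among the transcription factors, Irf1, which activates GBP genes, was higher in Ova (0.38, adjusted p 0.0165) and not called in IC (0.15, adjusted p 0.272). Irf8 was higher in both (0.42, adjusted p 0.00606, and 0.31, adjusted p 0.0217). Stat2 (0.85 and 0.82) and Stat3 (0.81 and 0.79) were also higher in both. Spi1, which encodes the myeloid factor PU.1, had the lowest adjusted p of the list (-1.54 in Ova, adjusted p 2.34e-06, and -1.75 in IC, adjusted p 7.61e-07). Irf9, a DNA-binding partner of STAT2, was lower in both (-0.55, adjusted p 0.00119, and -0.47, adjusted p 0.00251), as was Irf2 (-1.3, adjusted p 0.00385, and -1.37, adjusted p 0.0024). The feedback inhibitor Socs1 was not called (0.14 and -0.1). The 7 members called lower in IC thus fell beside lower Spi1, Irf2 and Irf9 and higher Irf8, Stat2 and Stat3. The part of any of these factors in the result was not tested.

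**Figure D5:**
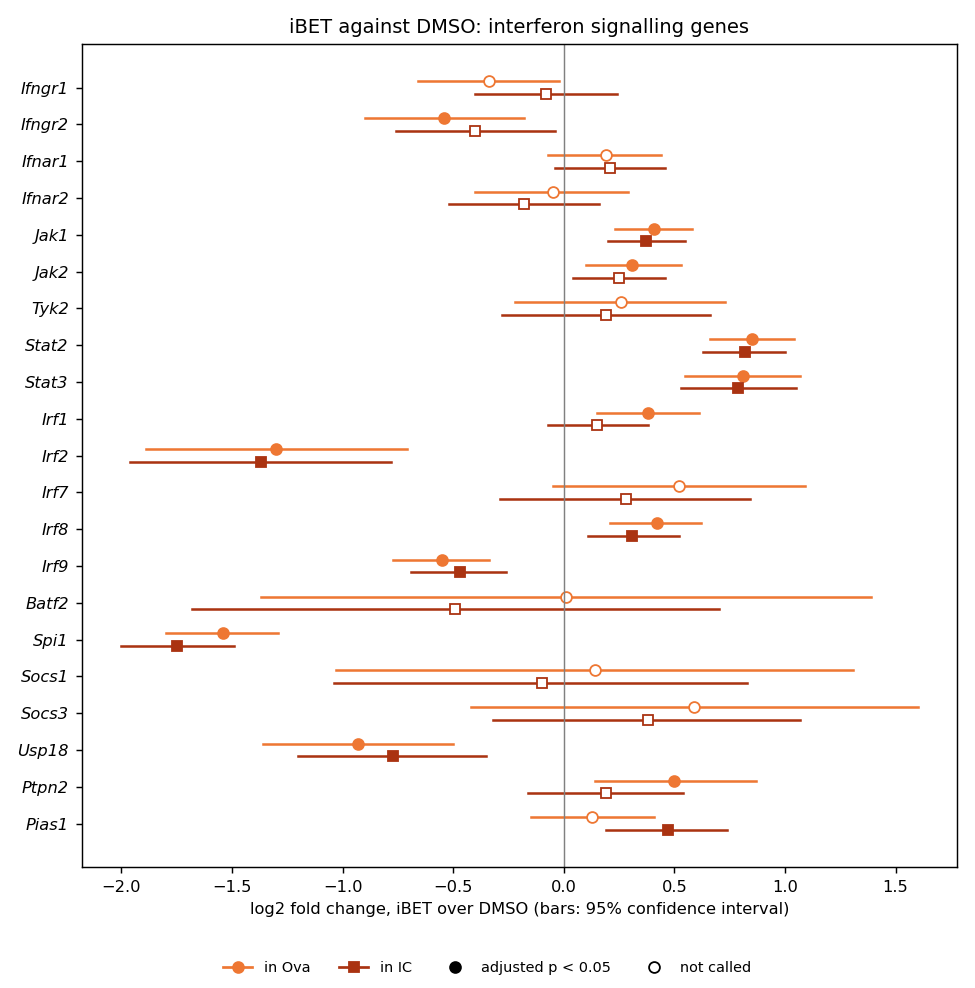
Log2 fold change of iBET over DMSO with its 95% confidence interval in Ova (orange circles) and IC (red squares) for the 21 tested genes of interferon signalling, filled where the adjusted p was under 0.05. Spi1 (-1.54 and -1.75) and Irf2 lie farthest to the left, Stat2 and Stat3 farthest to the right, and Ifngr1 is open in both.

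Of 9 other tested genes linked to interferon gamma, 1 was called lower with iBET in Ova (14.2% of all genes), Cd274, the gene for PD-L1 (-1.21, adjusted p 0.000584), and 3 in IC (15.8% of all genes), Cd274 (-1.67, adjusted p 2.75e-05), Cxcl10 (-1.58, adjusted p 0.046) and Slamf8 (-1.52, adjusted p 0.0191). Cxcl10 differed by -1.62 in Ova, with an adjusted p of 0.0701 that became 0.00019 under the mouse block. The other 6 in IC, among them the antigen-processing genes Tap1, Psmb8 and Psmb9, were not called, with differences of -0.22, -0.22 and -0.19 for these 3.

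A list of 22 tested genes for the proteins that GBPs and IRGs act with, in autophagy and in inflammasomes, was called about as often as all genes. In Ova 4 were higher and 3 lower with iBET (median 0.11, with 17.1% and 14.2% of all genes called), and in IC 5 were higher and 5 lower (median 0.19, against 19% and 15.8%). The inflammasome sensor Nlrp3 was lower in both (-2.08, adjusted p 1.27e-05, and -1.64, adjusted p 4.34e-05), as was Gsdmd, the gene for the pore-forming gasdermin D (-0.72 and -0.5). Atg12, part of the conjugation system that loads GBPs and IRGs onto vacuoles (1.12 and 1.16), and the kinase gene Pim1 (1.1 and 0.89) were higher in both.

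The genes whose pattern over the 12 libraries was most like the median of the members were Dnlz, Slc25a24, Ssrp1, Kcnk6 and Ppil1, out of 9421 candidates with a mean count of at least 50. Their root mean square log2 distance from that median was 0.118 to 0.143, smaller than that of the members themselves, which ran from 0.191 for Igtp to 0.637 for Ifi47.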

How the data were processed

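RNA-seq of 12 BMDM libraries was used. The authors deposited counts per gene symbol, made with Trim Galore, HISAT2 on mm10 and featureCounts; the annotation, the strand setting and the handling of multi-mapped reads are not given in the sources used here. The authors also deposited a normalized signal, which equalled the counts divided by DESeq2 size factors (largest relative gap 9.99e-15) and served only as an alternative.

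Counts were filtered with filterByExpr (minimum count 10), TMM-normalized and fitted in edgeR 4.0.16 (R 4.3.3) with a robust quasi-likelihood model of 1 term per group over 12 libraries. Each of the 5 contrasts was tested on both sides, with Benjamini-Hochberg adjustment across 11468 genes and calls at 0.05. Scripts were tested on simulated data. Intervals are 95% and, like errors, rest on 3 mice per group. Per-mouse changes and Gbp2 ratios used log2 CPM (prior count 2). Exon lengths and overlaps come from GENCODE vM21.

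The members, lists and tests were chosen with earlier results of these data known. The rule for named genes took all 8 members, up to 4 called genes per list and comparison with the lowest adjusted p, the other tested Gbp genes, Ifngr1, Ifngr2, Irf1, Irf8 and Socs1, and the 5 genes nearest to the members' median; others were named after their values were seen. Some of the genes that the rule selects are left out here.

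The labels name each library's mouse, which is the source of the pairing. Deviations from group means correlated between libraries of the same mouse with a median of 0.26 (18 pairs, -0.07 to 0.54), and of different mice with -0.13 (36 pairs). The main fit had no block. Alternatives were mouse as a block, DESeq2 1.42.0 and its size factors, other filters, the compared groups alone, 1 surrogate variable (sva 3.50.0), the normalized signal in limma 3.58.1 as log2(value + 1), removal of Rn45s, and omission of each library and mouse.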

Additional observations from a re-analysis of the deposited data

How the results depend on the processing

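The counts of members called were 0, 0, 5, 7 and 0 (IC against Ova in DMSO and in iBET, iBET against DMSO in Ova and in IC, and the interaction). With mouse as a replicate block, which uses the pairing in the labels, they were again 0, 0, 5, 7 and 0, and no member's call changed. Across the settings that kept all libraries, the counts were 0 for both IC comparisons and the interaction, 5 in Ova, and 6 or 7 in IC, with 6 where at least 10 counts were required in every library and Gbp5 was not tested. With 1 library left out they ran from 5 to 5 in Ova and from 6 to 8 in IC, and with 1 mouse left out from 4 to 5 and from 4 to 8. The lowest in IC, 4, was without mouse C. The cause was not tested, beyond the smaller number of libraries.

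Differences near 0 changed sign under some settings, none of them called. With 1 surrogate variable, Gbp2 in Ova became 0.01 and the IC effect on Ifi47 in iBET -0.01. With the normalized signal in limma, the IC effect on Gbp3 in DMSO became -0.07 and that on Gbp5 in iBET -0.02, and DESeq2 with the block also gave -0.02 for the latter. With a library or mouse left out, Gbp2 in Ova ran from -0.08 to 0.01, the IC effect in DMSO from -0.34 to 0.54 for Gbp3 and from -0.19 to 0.03 for Irgm1, the IC effect in iBET from -0.36 to 0.34 for Gbp5, -0.2 to 0.01 for Irgm2 and -0.36 to 0.49 for Ifi47, and the interaction from -0.2 to 0.2 for Gbp7 and -0.11 to 0.08 for Igtp. Of the gene-level values under alternatives, 941 kept direction and call, 33 changed sign, 10 lost a call and 2 gained one. Depth limits Gbp5 most. Ifi47 had 14 counts in mouse A of DMSO Ova and in mouse B of iBET Ova, and 18 and 17 in mice B and C of iBET IC. Gbp7 had 23 in mouse A of DMSO Ova, and Gbp3 had 18 in mouse B of iBET IC.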
